A study of Mus musculus with 6 samples.

Results

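The genes described here are 45 interferon-stimulated genes, including the guanylate-binding proteins (GBPs) and immunity-related GTPases, out of 54838 gene identifiers counted by RNA sequencing in isolated mouse glomeruli. They were picked by gene symbol from the count tables, as known interferon-induced genes, with earlier results of these data known. All 45 were found, and all 45 passed the filter on low counts. They were compared between 3 libraries labelled KO (146, 147 and 148), of genotype bPIX -/-, and 3 libraries labelled CTRL (157, 162 and 163), of wild type genotype. All 6 came from 3-week-old mice, and the series title gives the loss of bPIX as restricted to podocytes, the epithelial cells that wrap the glomerular capillaries. bPIX is an exchange factor for Cdc42 and Rac1 encoded by Arhgef7. The labels name no Cre driver, strain or sex. Nothing in the labels says more of each library's origin than its number, so p-values measure the spread between these samples.

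Interferons are secreted proteins, and cells release those of type I and type III on sensing, among other things, foreign or misplaced nucleic acid. Interferon receptors signal through JAK kinases to transcription factors. Type I and type III interferons act mainly through the interferon-stimulated response element (ISRE) in the promoters of induced genes, and type II interferon through the gamma-activated sequence (GAS). The induced genes encode RNA sensors, antiviral enzymes, membrane proteins that stop viral entry or release, and GTPases that attack the vacuoles of intracellular microbes. Many are also transcribed at a low basal level without infection, and endothelial cells and macrophages are among the cells known to express them.

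Gene counts ranged from 39841396 to 51917945 per library. The targeted gene, Arhgef7, stood at 133, 89.6 and 85.9 CPM (counts scaled to a common library size) in KO 146, 147 and 148 and at 91.9, 94.1 and 88.4 CPM in CTRL 157, 162 and 163, so it did not separate the groups. Groups follow the sample labels. In all 6 cases the file holding a library's counts is named for the opposite genotype and for another library number, and were those names correct, KO and CTRL would change places in every comparison. Library numbers are those of the labels throughout and carry the same doubt. KO 146 stood apart on the first principal component, which held 68.8% of the variance, with a score of -82.7 against -26.1 and -3.5 for the other KO libraries and 34.7 to 42.3 for the CTRL libraries.

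Promoter sequences show which of these genes carry the ISRE close to their start. RefSeq promoters on GRCm38.p6, from 250 bases before to 50 bases after a start site, were present for 31 of the 45 genes, as 35 windows. The ISRE core was searched on both strands as a pair of GAAA half-sites 2 bases apart and lay in 54.3% of the 35 windows, against 3.44% of all 32851 promoter windows of the same length. The GAS core, TTCNNNGAA, which reads the same on both strands, lay in 28.6% of the 35 windows and in 8.3% of all windows. Overlapping matches were counted separately, and a match describes letters and is not a binding site. The sequences shown are 2 promoters of genes with large fitted differences (Ifit1 and Isg15) and 2 of genes with fitted differences near 0 (Igtp and Irgm1), each 5′ to 3′ along the gene, with ISRE cores in capitals.
Ifit1: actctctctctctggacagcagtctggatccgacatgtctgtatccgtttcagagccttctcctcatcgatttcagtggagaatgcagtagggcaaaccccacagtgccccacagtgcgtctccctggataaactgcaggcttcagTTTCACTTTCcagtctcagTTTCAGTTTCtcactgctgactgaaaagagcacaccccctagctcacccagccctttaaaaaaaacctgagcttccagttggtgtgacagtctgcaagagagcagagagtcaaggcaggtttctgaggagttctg
Isg15: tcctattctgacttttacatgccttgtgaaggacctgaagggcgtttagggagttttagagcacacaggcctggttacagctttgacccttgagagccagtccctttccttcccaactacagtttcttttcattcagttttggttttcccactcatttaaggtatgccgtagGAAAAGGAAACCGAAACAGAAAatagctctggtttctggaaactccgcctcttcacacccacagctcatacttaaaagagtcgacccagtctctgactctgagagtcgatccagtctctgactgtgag
Igtp: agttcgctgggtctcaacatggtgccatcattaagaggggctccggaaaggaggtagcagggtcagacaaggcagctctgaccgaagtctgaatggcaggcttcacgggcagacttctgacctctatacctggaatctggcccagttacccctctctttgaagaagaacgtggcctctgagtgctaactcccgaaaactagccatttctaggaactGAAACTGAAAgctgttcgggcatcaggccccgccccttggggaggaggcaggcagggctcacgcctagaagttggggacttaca
Irgm1: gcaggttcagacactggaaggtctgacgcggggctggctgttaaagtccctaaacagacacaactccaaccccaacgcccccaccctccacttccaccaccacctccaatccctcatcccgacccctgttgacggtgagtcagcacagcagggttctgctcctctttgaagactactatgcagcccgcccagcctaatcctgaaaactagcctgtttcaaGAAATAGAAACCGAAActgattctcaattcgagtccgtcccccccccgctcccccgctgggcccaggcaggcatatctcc
These windows are chr19:34640639-34640938 (plus strand) for Ifit1, chr4:156200769-156201068 (minus) for Isg15, chr11:58199306-58199605 (plus) for Igtp and chr11:48871371-48871670 (minus) for Irgm1. Ifit1 holds 2 cores that begin 104 and 85 bases before the start, and Isg15 holds 3 overlapping cores that begin between 78 and 66 bases before it. Igtp holds 1 core beginning 34 bases before the start, and Irgm1 holds 2 beginning 30 and 24 bases before it. Among the 31 genes with a promoter, the 19 with an ISRE core in at least 1 window had a median log2 fold change of 0.89 (range 0.11 to 1.71). The other 12 had a median of 0.90 (range -0.08 to 1.63), so the 2 medians were nearly equal. The search covered only half-sites 2 bases apart within these windows, so the 12 may hold elements of other spacing or position. A link between the core and the fold change was not tested.

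Nearly all of the 45 genes lay higher in the KO-labelled libraries than in CTRL, and none passed the test over all genes. In the edgeR quasi-likelihood test of KO against CTRL with Benjamini-Hochberg adjustment over 17086 genes, 0 of 45 were called at an adjusted p below 0.05, where 1.01% of all tested genes were called. A positive log2 fold change was found for 44 of 45 genes, against 49.3% of all tested genes, and the median was 0.95, against -0.01 over all tested genes. An unadjusted p below 0.05 with a higher KO level was reached by 36 genes, against 17.5% of all tested genes, and by 0 genes with a lower KO level, against 11.8% of all tested genes. The 3 KO libraries lay above all 3 CTRL libraries in 36 genes, against 21.9% of all tested genes. Adjusted p-values were 0.0624 at the lowest, and 31 of the 45 lay under 0.1. DESeq2 called 32 of the 45, all higher in KO, where it called 11.7% of all tested genes higher. With limma-voom 0 were called, where it called 0.433% of all tested genes higher.

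The fitted differences spanned a wide range. A log2 fold change of 1 or more was found for 20 genes, from 0.5 to under 1 for 15, from 0 to under 0.5 for 9, and below 0 for Trim25 alone. The 3 KO libraries differed among themselves. KO 146 was the highest of the 3 KO libraries in 38 of 45 genes, and KO 148 was the lowest in 34. Set against the CTRL mean on the log2 CPM scale, the median difference of the 45 genes was 1.36 in KO 146, 0.90 in KO 147 and 0.44 in KO 148. Above the CTRL mean lay 43 genes in KO 146, 43 in KO 147 and 42 in KO 148.

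**Figure D1:**
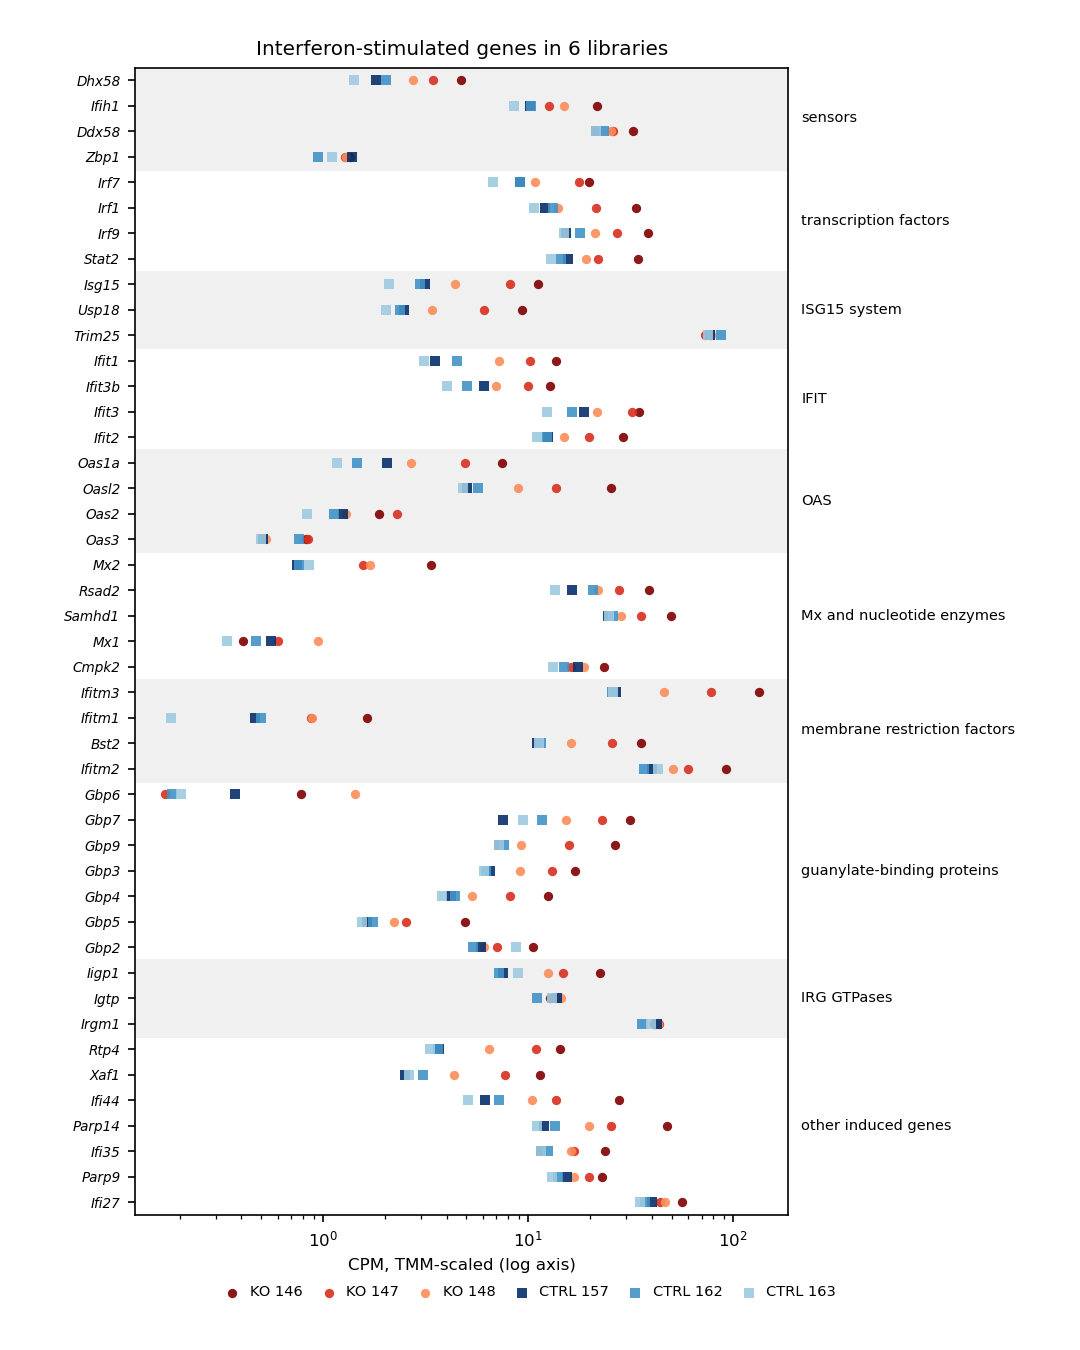
Level of each of the 45 genes in CPM (TMM-scaled, log axis) in the 3 KO libraries (circles) and the 3 CTRL libraries (squares), grouped by role. KO 146 is the highest KO library for 38 of 45 genes, and the KO points lie above all CTRL points for 36.

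Levels per length, in RPKM (CPM per kilobase of exon), placed the genes in order. The short membrane proteins stood at the top, with Ifitm3 at 126 ± 65.3 RPKM in KO and 38.6 ± 0.769 RPKM in CTRL and Ifitm2 at 104 ± 32.9 RPKM in KO and 61.0 ± 5.01 RPKM in CTRL (SD, n = 3 each). Ifi27 followed at 33.4 ± 4.54 RPKM in KO and 25.5 ± 1.67 RPKM in CTRL, then Bst2 at 28.4 ± 10.6 RPKM in KO and 12.5 ± 0.206 RPKM in CTRL. The lowest were Mx1, Oas3 and Gbp6, the last at 0.133 ± 0.106 RPKM in KO and 0.0425 ± 0.0174 RPKM in CTRL. Within the KO group the SD of Ifitm3 and Ifitm2 was larger than the distance between their means, so their order there was not resolved. In CTRL the SDs were small enough that Ifitm2 lay above Ifitm3.

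The cytosolic sensors recognise viral nucleic acid and start interferon production. Dhx58, which encodes LGP2, a helicase that tunes the other RNA sensors, had 4.73, 3.43 and 2.73 CPM in KO 146, 147 and 148, against 1.81, 2.02 and 1.42 CPM in CTRL 157, 162 and 163. The groups did not overlap, and the log2 fold change was 1.05 (SE 0.26, edgeR adjusted p = 0.0767). Ifih1, encoding MDA5, a sensor of long double-stranded RNA, had 21.6, 12.6 and 14.9 CPM in KO and 10.2, 10.3 and 8.56 CPM in CTRL. KO 146 was the highest library, and the log2 fold change was 0.76 (SE 0.21, edgeR adjusted p = 0.0827). Ddx58, encoding RIG-I, a sensor of short RNA ends, showed less difference, at 32.3, 25.8 and 25.2 CPM in KO and 21.4, 23.4 and 21.5 CPM in CTRL (log2 fold change 0.33, SE 0.12). Zbp1, a sensor of Z-form nucleic acid, was near 1 CPM in every library, at 1.36, 1.28 and 1.30 CPM in KO and 1.39, 0.945 and 1.11 CPM in CTRL. Its groups overlapped, with a log2 fold change of 0.19 (SE 0.21).

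The transcription factors had similar fitted differences. Irf9, the DNA-binding subunit of the interferon-activated complex, had 38.4, 27.0 and 21.1 CPM in KO and 15.3, 17.9 and 14.9 CPM in CTRL (log2 fold change 0.85, SE 0.22, edgeR adjusted p = 0.0784). Stat2, its partner, had 34.2, 22.0 and 19.1 CPM in KO and 15.6, 14.5 and 12.9 CPM in CTRL (0.81, SE 0.22). Irf7, the factor that amplifies interferon production, had 19.8, 17.7 and 10.8 CPM in KO and 9.11, 9.16 and 6.71 CPM in CTRL (0.95, SE 0.25). In all of these the groups did not overlap, and KO 148 lay nearest the CTRL libraries. Irf1, a factor strongly induced by type II interferon, had 33.6, 21.3 and 13.9 CPM in KO and 12.1, 13.2 and 10.7 CPM in CTRL (0.94, SE 0.30). KO 148 was separated from CTRL 162 by less than 1 CPM.

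In the ISG15 system, which attaches and removes a ubiquitin-like tag, the tag and its protease had larger fitted differences than the ligase. Isg15, the tag itself, had 11.2, 8.13 and 4.38 CPM in KO and 3.14, 2.97 and 2.10 CPM in CTRL (log2 fold change 1.53, SE 0.36, edgeR adjusted p = 0.0755). Usp18, the protease that removes ISG15 and also dampens the type I receptor, had 9.32, 6.11 and 3.39 CPM in KO and 2.49, 2.36 and 2.03 CPM in CTRL (1.45, SE 0.36). Both had groups that did not overlap. Trim25, a ubiquitin ligase that acts on RIG-I, had 76.8, 72.8 and 77.9 CPM in KO and 77.4, 87.3 and 75.3 CPM in CTRL. Its groups overlapped, and its log2 fold change was -0.08 (SE 0.0856, edgeR adjusted p = 0.578), or 0.06 when libraries were scaled by their totals.

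The IFIT genes, a cluster on chromosome 19 whose products bind foreign RNA, included the gene with the smallest adjusted p of the 45. Ifit1 (chr19:34640871-34650009 on the plus strand of GRCm38) drew 805, 423 and 326 counts in KO 146, 147 and 148 and 151, 171 and 138 counts in CTRL 157, 162 and 163. These corresponded to 13.6, 10.2 and 7.17 CPM in KO and 3.51, 4.49 and 3.12 CPM in CTRL, with no overlap. The log2 fold change was 1.48 (SE 0.27, edgeR adjusted p = 0.0624, range over 15 alternatives 1.95e-05 to 0.264). Ifit3 had 34.7, 32.0 and 21.6 CPM in KO and 18.7, 16.4 and 12.4 CPM in CTRL (0.89, SE 0.22). Ifit3b, its neighbour, had 12.8, 9.99 and 6.93 CPM in KO and 6.06, 5.02 and 4.02 CPM in CTRL (0.98, SE 0.26). Of the 50-base windows of Ifit3, 51.2% also occurred in Ifit3b. Reads from those windows may align to more than 1 place, which was not examined, and both genes are uncertain. Ifit2 had 28.9, 19.8 and 14.9 CPM in KO and 12.5, 12.3 and 11.1 CPM in CTRL (0.83, SE 0.23).

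The OAS genes encode synthetases of oligoadenylates that activate RNase L. Oasl2 had 25.2, 13.7 and 8.96 CPM in KO and 5.02, 5.70 and 4.79 CPM in CTRL (log2 fold change 1.63, SE 0.37, edgeR adjusted p = 0.0755). Oas1a had 7.46, 4.90 and 2.68 CPM in KO and 2.04, 1.47 and 1.17 CPM in CTRL (1.68, SE 0.40). The groups did not overlap in either gene, but 57.6% of the 50-base windows of Oas1a also occurred in Oas1g, and its level is uncertain. Oas2 had 1.88, 2.29 and 1.30 CPM in KO and 1.25, 1.13 and 0.836 CPM in CTRL (0.76, SE 0.28). Oas3 was counted between 22 and 49 times per library. It had 0.830, 0.845 and 0.528 CPM in KO and 0.511, 0.762 and 0.497 CPM in CTRL, and the groups overlapped (0.32, SE 0.29).

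Among the Mx GTPases and the enzymes that act on nucleotides, Mx2 had the largest difference. It had 3.37, 1.57 and 1.69 CPM in KO and 0.744, 0.762 and 0.858 CPM in CTRL, with no overlap (log2 fold change 1.49, SE 0.34, edgeR adjusted p = 0.0755). Mx1 was counted 15 to 43 times per library and had 0.407, 0.603 and 0.946 CPM in KO and 0.558, 0.473 and 0.339 CPM in CTRL. It was one of the few genes with KO 148 highest, and its groups overlapped (0.50, SE 0.38). Rsad2, encoding viperin, which makes a chain-terminating nucleotide, had 38.6, 27.6 and 21.8 CPM in KO and 16.3, 20.7 and 13.5 CPM in CTRL (0.80, SE 0.24). Samhd1, which degrades deoxynucleotides, had 49.9, 35.4 and 28.2 CPM in KO and 24.6, 25.9 and 24.8 CPM in CTRL (0.59, SE 0.20). Cmpk2, a mitochondrial nucleotide kinase gene next to Rsad2 on chromosome 12, had overlapping groups and a log2 fold change of 0.36 (SE 0.17).

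The membrane restriction factors held the largest fitted difference of the 45 genes. Ifitm3, which blocks fusion of viruses in endosomes (chr7:141009586-141010770, minus strand), was counted 7861, 3226 and 2075 times in KO and 1150, 979 and 1151 times in CTRL. Its level was 133, 77.9 and 45.7 CPM in KO and 26.7, 25.7 and 26.0 CPM in CTRL. The 3 CTRL libraries were nearly equal, while the KO libraries were spread widely, KO 146 at the top. The log2 fold change was 1.71 (SE 0.36, edgeR adjusted p = 0.0753, range over 15 alternatives 6.51e-05 to 0.471). Bst2, encoding tetherin, which holds budding virions at the cell surface, had 35.3, 25.5 and 16.1 CPM in KO and 11.1, 11.5 and 11.3 CPM in CTRL (1.19, SE 0.27). Ifitm1 was low, with 1.64, 0.869 and 0.880 CPM in KO and 0.465, 0.499 and 0.181 CPM in CTRL (1.58, SE 0.44). Ifitm2 had 92.1, 60.4 and 51.0 CPM in KO and 40.2, 36.6 and 43.1 CPM in CTRL (0.76, SE 0.22), and 48.5% of its 50-base windows occurred in other genes. In all 4 genes the groups did not overlap.

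GBPs are large GTPases that assemble on pathogen vacuoles, and the 7 among the 45 genes lie in clusters on chromosomes 3 and 5. On chromosome 3, Gbp3 had 16.9, 13.0 and 9.09 CPM in KO and 6.51, 6.22 and 6.08 CPM in CTRL (log2 fold change 1.06, SE 0.22, edgeR adjusted p = 0.0753). Gbp7 had 31.5, 22.9 and 15.3 CPM in KO and 7.55, 11.7 and 9.42 CPM in CTRL (1.28, SE 0.29). Gbp2, in the same cluster, had 10.5, 7.02 and 6.10 CPM in KO and 5.90, 5.38 and 8.72 CPM in CTRL. CTRL 163 lay above KO 147 and KO 148 for Gbp2, so the groups overlapped, and the log2 fold change was 0.24 (SE 0.27, edgeR adjusted p = 0.578), or -0.03 without KO 146, -0.49 with the mean of proximal tubule markers as a covariate and -0.55 with that of endothelial markers. Gbp5, also on chromosome 3, had a value of 0.98 (SE 0.32), and -0.12 and -0.18 with the same covariates. On chromosome 5, Gbp4 had 12.5, 8.11 and 5.35 CPM in KO and 4.21, 4.39 and 3.82 CPM in CTRL (1.06, SE 0.30), and Gbp9 had a log2 fold change of 1.23 (SE 0.35). With the endothelial covariate Gbp4 stood at -0.07 and Gbp9 at -0.20. Gbp6 had only 46, 7 and 65 counts in KO and 16, 7 and 9 in CTRL. Its groups overlapped at a log2 fold change of 1.64 (SE 0.72), and 59.7% of its 50-base windows occurred in other genes.

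The count tables hold 4 more GBP genes of these clusters, which belong to the list of other induced genes and were singled out after their values were seen. Gbp8 had 0.627, 0.507 and 0.418 CPM in KO and 0.976, 0.630 and 0.926 CPM in CTRL. All KO libraries lay below all CTRL libraries for Gbp8, at a log2 fold change of -0.70 (SE 0.27, edgeR adjusted p = 0.149). Gbp10 had 0.356, 0.652 and 0.638 CPM in KO and 0.883, 0.473 and 1.92 CPM in CTRL, with overlapping groups (-1.02, SE 0.53). Gbp11 had 5, 3 and 4 counts in KO and 10, 6 and 23 counts in CTRL, and Gbp2b had 7, 14 and 11 counts in KO and 8, 6 and 8 counts in CTRL. Neither Gbp11 nor Gbp2b passed the filter on low counts. Fitted values of the tested GBP genes thus lay on both sides of 0. Those below 0, of Gbp8 and Gbp10, rested on 18 to 85 counts per library, and neither gene was called.

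The immunity-related GTPases had unlike values. Iigp1, an effector that loads onto vacuole membranes, had 22.3, 14.7 and 12.5 CPM in KO and 7.53, 7.19 and 8.88 CPM in CTRL, with no overlap (log2 fold change 1.07, SE 0.23, edgeR adjusted p = 0.0753). Igtp and Irgm1 encode regulatory members that restrain the effectors. Igtp had 12.8, 13.7 and 14.4 CPM in KO and 13.8, 11.1 and 13.0 CPM in CTRL (0.11, SE 0.12, edgeR adjusted p = 0.554). Irgm1 had 40.9, 43.5 and 43.0 CPM in KO and 42.5, 35.7 and 39.8 CPM in CTRL (0.11, SE 0.0886, edgeR adjusted p = 0.437). Both had overlapping groups, and KO 146 was the lowest KO library for both. Further genes of this family belong to the list of other induced genes and were singled out after their values were seen. Irgm2 had a log2 fold change of 0.37 (SE 0.15) and Ifi47 of 1.01 (SE 0.3), and neither had overlapping groups. Tgtp2 had 1.35 (SE 0.26), while Tgtp1 had -0.06 (SE 0.32) with overlapping groups. The difference between Iigp1 and the regulatory members was not tested, nor was any link between role and fold change in this family.

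Among the remaining induced genes, Rtp4, whose product helps receptors reach the cell surface, had 14.3, 10.9 and 6.45 CPM in KO and 3.69, 3.65 and 3.32 CPM in CTRL (log2 fold change 1.57, SE 0.29, edgeR adjusted p = 0.0649, range over 15 alternatives 2.11e-05 to 0.286). Xaf1, a pro-apoptotic partner of the inhibitor XIAP, had 11.4, 7.70 and 4.36 CPM in KO and 2.51, 3.07 and 2.62 CPM in CTRL (1.52, SE 0.34). Parp14, a mono-ADP-ribosyltransferase, had 47.6, 25.3 and 19.8 CPM in KO and 11.9, 13.5 and 11.0 CPM in CTRL (1.35, SE 0.32). None of these overlapped between groups, and each was highest in KO 146 and next highest in KO 147. Ifi27 had 56.5, 43.7 and 46.7 CPM in KO and 40.0, 37.1 and 35.2 CPM in CTRL (0.39, SE 0.12). Ifi44, Ifi35 and Parp9 had log2 fold changes of 1.50, 0.67 and 0.49, and their groups did not overlap. Parp9 shares 458 exon bases with Dtx3l on the opposite strand, and Ifi35 shares 290 with an antisense gene, so reads of those stretches cannot be assigned without the strand setting.

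**Figure D2:**
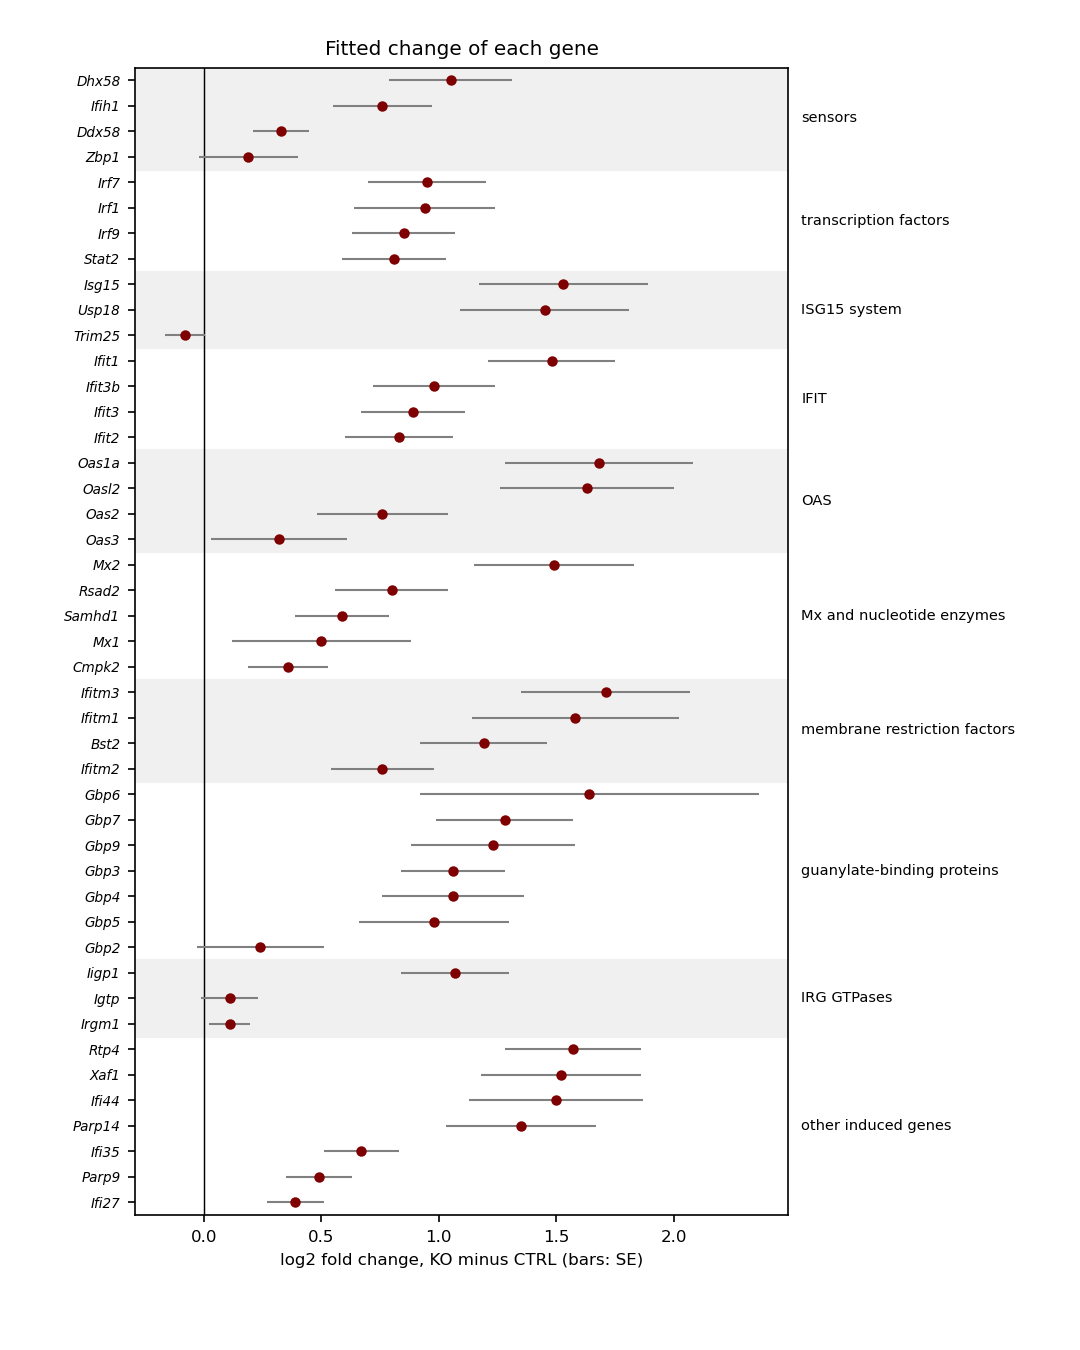
Log2 fold change of each of the 45 genes, KO minus CTRL, from the edgeR fit to all 6 libraries, grouped by role, with bars of 1 SE. Values lie between -0.08 (Trim25) and 1.71 (Ifitm3), and Trim25, Igtp and Irgm1 lie close to 0.

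The rest of the pathway was read from lists of ligands, receptors, signalling proteins, upstream sensors and other induced genes. Interferon transcripts themselves were at the limit of detection. Of 21 interferon genes, 16 had 0 counts in all 6 libraries, and no ligand exceeded 7 counts in any library. A count of 0 allows up to 0.0578 to 0.0753 CPM in a library, here scaled by library totals without TMM. All ligands together had 6, 3 and 11 counts in KO 146, 147 and 148 and 9, 3 and 7 counts in CTRL 157, 162 and 163. Ifng, the type II interferon, had 5, 2 and 3 counts in KO and 5, 2 and 5 in CTRL. None of the ligands passed the filter on low counts, and a difference between groups was not detectable at this depth.

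Receptors and signalling genes had smaller fitted differences. Over all tested genes, edgeR called 1.01%, and 17.5% had an unadjusted p below 0.05 and a higher KO value. Of 6 receptor genes, edgeR called 0, 4 had such a p and a higher KO value, and the median log2 fold change was 0.34. Ifngr1 and Ifngr2, the subunits of the type II receptor, had values of 0.57 (SE 0.15) and 0.39 (SE 0.11), and Ifnar2 of the type I receptor had 0.36 (SE 0.14). Of 9 JAK-STAT genes and inhibitors, edgeR called 0, 3 had an unadjusted p below 0.05 and a higher KO value, and the median was 0.21. Socs3, a feedback inhibitor of cytokine receptors, had 13.4, 8.37 and 8.56 CPM in KO and 3.74, 4.54 and 4.47 CPM in CTRL (1.25, SE 0.22, edgeR adjusted p = 0.0599). Stat3 stood at 0.26 (SE 0.0901).

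Upstream sensors and adaptors were mixed. Of 15 tested, 10 were positive, and their median log2 fold change was 0.04. edgeR called 0, and at an unadjusted p below 0.05 there were 4 higher and 1 lower. The shares over all tested genes were 17.5% higher and 11.8% lower. Mb21d1, encoding the DNA sensor cGAS, had 1.83, 1.57 and 0.858 CPM in KO and 0.418, 0.578 and 0.587 CPM in CTRL (1.43, SE 0.34). Tlr4, the receptor of bacterial lipopolysaccharide, had 19.0, 6.47 and 5.15 CPM in KO and 2.42, 2.65 and 2.82 CPM in CTRL (1.96, SE 0.51). KO 146 was far above the other KO libraries for Tlr4, and its log2 fold change ranged from -0.06 to 2.27 over 15 alternatives. Irf5, a factor downstream of Toll-like receptors, was lower, with 8.13, 8.91 and 7.83 CPM in KO and 12.8, 18.9 and 11.4 CPM in CTRL (-0.79, SE 0.20, edgeR adjusted p = 0.0777). Among 43 tested other interferon-induced genes, 36 had a positive log2 fold change, with a median of 0.64. edgeR called 0, and 29 were higher and 1 lower at an unadjusted p below 0.05, beside the same shares over all tested genes. Tgtp2, another immunity-related GTPase, had a value of 1.35 (SE 0.26), Uba7, the ISG15-activating enzyme, of 1.51 (SE 0.35), and Nlrc5, the activator of MHC class I genes, of 1.10 (SE 0.25). DESeq2 called 2 of 6 receptor genes, 2 of 9 JAK-STAT genes and 20 of 43 other induced genes, all higher in KO, and of 15 upstream genes 4 higher and 1 lower. Of all tested genes it called 11.7% higher and 5.65% lower in KO, and limma-voom called 0 genes of these lists.

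Markers of glomerular cells had higher values in the same KO libraries, and in the same order. Summed over the list, endothelial markers ranged from 1691 to 5701 CPM in KO and from 841 to 986 CPM in CTRL, with 15 of 15 positive and a median log2 fold change of 1.74. Podocyte markers ranged from 2478 to 8941 CPM in KO and from 1116 to 1343 CPM in CTRL (15 of 15 positive, median 2.05), and mesangial and smooth muscle markers from 502 to 1998 CPM in KO and from 292 to 308 CPM in CTRL (12 of 12 positive, median 1.69). Proximal tubule markers ran the other way, from 17253 to 29484 CPM in KO and from 36965 to 38647 CPM in CTRL (0 of 18 positive, median -0.56). Markers of more distal nephron segments and the collecting duct ranged from 4245 to 7445 CPM in KO and from 6495 to 8187 CPM in CTRL (0 of 13 positive, median -0.44). The part of this glomerular and tubule content in the values of the 45 genes was not tested, and in bulk RNA fewer cells of a type and less RNA per cell cannot be told apart.

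The leukocyte marker lists had no common direction. Macrophage and dendritic cell markers summed to 89.5 to 130 CPM in KO and 91.4 to 104 CPM in CTRL, with 6 of 13 positive and a median of -0.15. Lymphocyte markers summed to 13.0 to 18.1 CPM in KO and 16.2 to 30.0 CPM in CTRL (8 of 13 positive, median 0.08). Plasmacytoid dendritic cell markers summed to 2.69 to 4.36 CPM in KO and 3.93 to 4.90 CPM in CTRL (0 of 4 positive, median -0.60), and neutrophil markers to 2.31 to 4.78 CPM in KO and 1.90 to 2.49 CPM in CTRL, with 3 of 7 passing the filter (3 of 3 positive, median 0.71). Ly6g, a defining neutrophil marker, was at 0 in 5 of the 6 libraries. Red blood cell markers summed to 290 to 576 CPM in KO and 122 to 739 CPM in CTRL (1 of 6 positive, median -0.20). Mrc1, listed here as a macrophage gene, differed from the rest of its list at 40.6, 19.7 and 13.5 CPM in KO and 6.85, 8.27 and 7.16 CPM in CTRL, and was picked out after its values were seen.

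**Figure D3:**
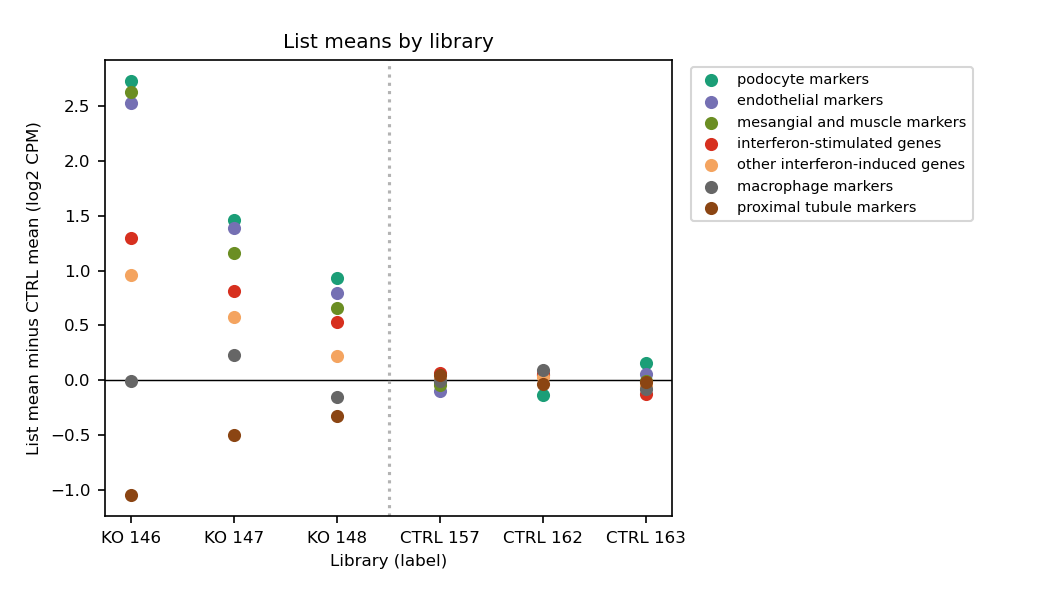
Mean log2 CPM of 7 gene lists in each library, less the mean of the 3 CTRL libraries. The interferon-stimulated genes and glomerular markers are highest in KO 146 and lowest among KO libraries in KO 148, macrophage markers stay near 0, and proximal tubule markers are lowest in KO 146.

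The 45 genes differed by less than the glomerular markers did. Their mean was 3.89, 3.40 and 3.12 log2 CPM in KO 146, 147 and 148 and 2.66, 2.65 and 2.46 log2 CPM in CTRL 157, 162 and 163. Taken relative to the endothelial marker mean, it was -4.14, -3.49 and -3.17 in KO and -2.73, -2.89 and -3.09 in CTRL, so the KO libraries lay below all CTRL libraries. Relative to the podocyte marker mean it was -4.34, -3.56 and -3.31 in KO and -2.82, -2.71 and -3.18 in CTRL. Relative to macrophage markers it was 1.71, 0.99 and 1.08 in KO and 0.48, 0.37 and 0.36 in CTRL, so that there the KO libraries lay above. The direction of the difference therefore depended on which cell type's markers were taken as the base.

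Marker means were also used as covariates, but both separated the groups by themselves. The proximal tubule mean was 9.0 to 9.72 log2 CPM in KO and 10.02 to 10.1 in CTRL. The endothelial mean was 6.29 to 8.03 log2 CPM in KO and 5.4 to 5.55 in CTRL. Fits with such a covariate cannot tell group from marker content. With the proximal tubule marker mean as a covariate in edgeR, the median log2 fold change of the 45 genes was 0.20, and 37 were positive. An unadjusted p below 0.05 with a higher KO value was reached by 3, against 9.26% of all tested genes. With the endothelial marker mean as the covariate the median was 0.16, 34 were positive and 3 had an unadjusted p below 0.05, against 8.69% of all tested genes. The 3 were Ifit1, Mx1 and Rtp4 in both fits. Ifit1 had log2 fold changes of 0.73 with the tubule covariate and 0.64 with the endothelial covariate, and Rtp4 had 0.69 and 0.57. Mx1 had larger values than without a covariate, at 1.46 and 1.55, on 15 to 43 counts per library. None was called after adjustment in these fits. Values were negative with either covariate for Ddx58, Irf1, Oas3, Samhd1, Gbp2, Gbp5, Gbp9 and Trim25, and with the endothelial covariate alone for Ifit2, Ifitm2 and Gbp4. Igtp and Irgm1 had small positive values in both, at 0.27 and 0.28 for Igtp and 0.20 in each for Irgm1. These were higher than without a covariate, where each gene stood at 0.11.

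**Figure D4:**
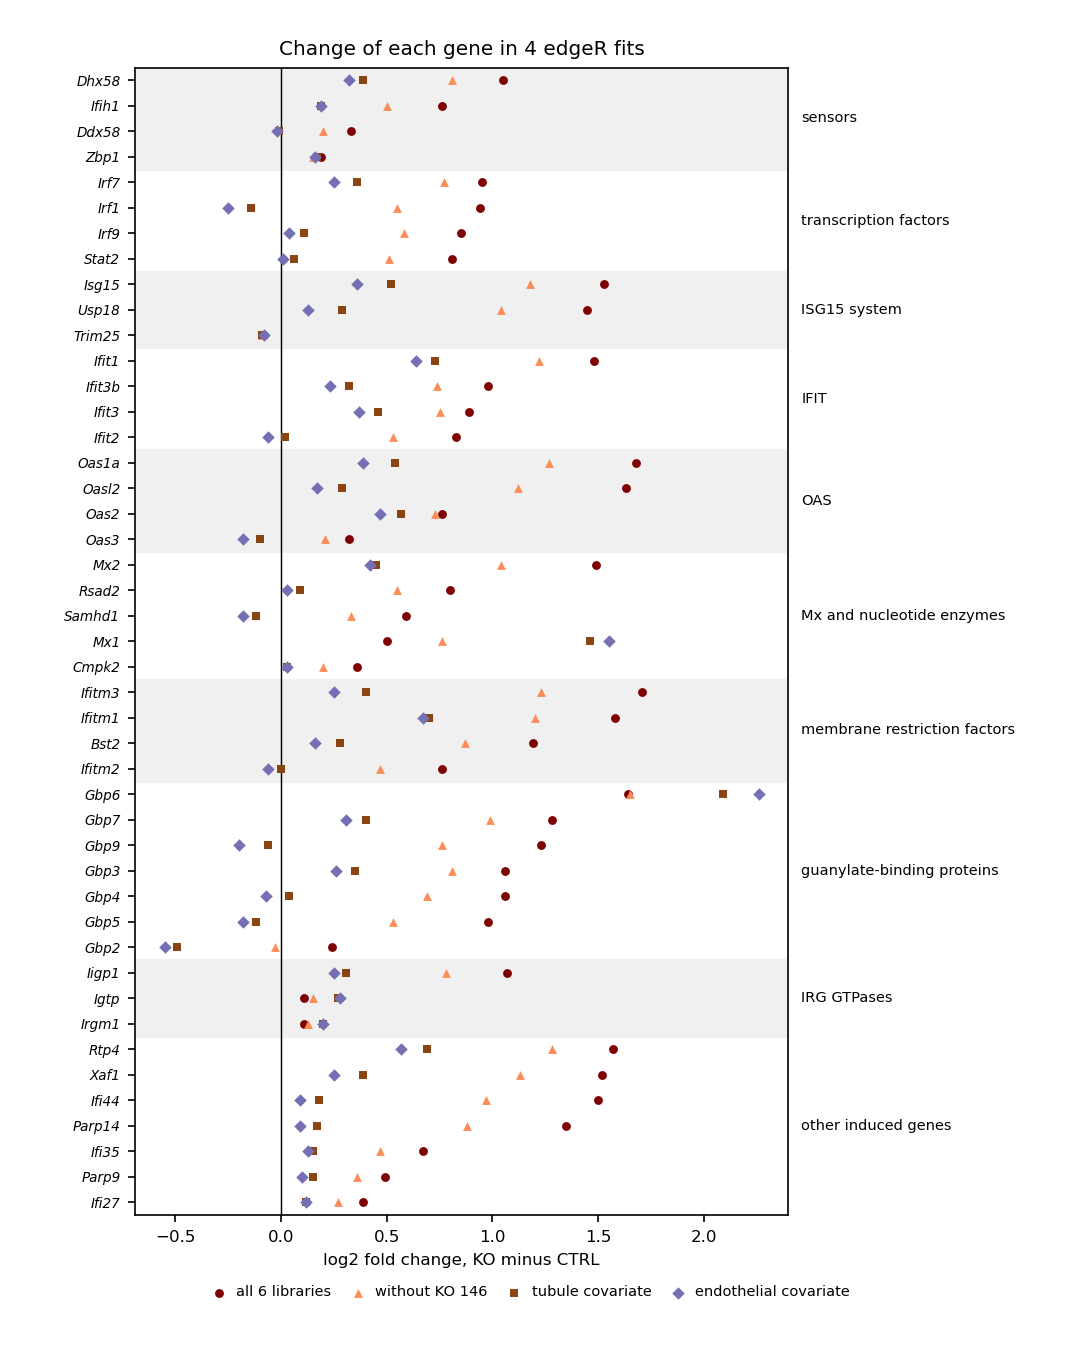
Log2 fold change of each of the 45 genes, KO minus CTRL, in 4 edgeR fits: all 6 libraries, without KO 146, with a proximal tubule covariate and with an endothelial covariate. The medians are 0.95, 0.74, 0.20 and 0.16. Mx1, Gbp6, Igtp and Irgm1 are among the genes with higher values with either covariate than without.

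Calls rested on which libraries entered. edgeR called 25 of the 45 genes without KO 146, all higher in KO, where 10.5% of all tested genes were called higher, and 33 without KO 148, where 12.9% were. It called 0 when KO 147, CTRL 157, CTRL 162 or CTRL 163 was left out. An unadjusted p below 0.05 with a higher KO level was then reached by 37 genes without KO 147 (15.9% of all tested genes), 33 without CTRL 157 (11.2%), 34 without CTRL 162 (12.5%) and 29 without CTRL 163 (12.0%). Dhx58, Gbp3, Ifi35, Ifit1, Iigp1, Mx2, Rtp4 and Xaf1 were called without KO 146, without KO 148, by DESeq2 and by edgeR without a filter on low counts. That last fit called 11 of the 45 and 1.41% of all tested genes higher. A set of 10 genes was called in none of the 15 alternatives, namely Cmpk2, Ddx58, Gbp2, Gbp6, Igtp, Irgm1, Mx1, Oas3, Trim25 and Zbp1.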

How the data were processed

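Total RNA of isolated glomeruli was taken with an RNeasy column kit, per the labels' protocols. The authors deposited counts of reads per Ensembl mouse gene for 3 KO and 3 CTRL libraries. The submitters' processing notes list fastp 0.19.5, STAR 2.6.0, HTSeq 0.11.1, DESeq2 and the build GRCh37; that build is human and the identifiers are mouse, and neither the labels nor the notes state the strand setting. The summary lines of the count files give 22.51% to 29.63% of reads as not uniquely aligned and 1.55% to 1.79% as ambiguous, and they were left out of totals and tests.

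Names were found for 54809 identifiers, and 29 had none. Exon lengths and coordinates are GENCODE's on GRCm38. Genes were filtered with edgeR's filterByExpr (minimum count 10), scaled by TMM and tested with the robust quasi-likelihood F test (edgeR 4.0.16, R 4.3.3), KO minus CTRL, with Benjamini-Hochberg adjustment and a threshold of 0.05. The SE is the log2 fold change divided by the root of F. CPM use TMM, and log2 CPM a prior count of 2. The alternatives were other scalings, filters and tools (DESeq2 1.42.0, limma 3.58.1), 2 marker covariates and each library left out. The procedure was tested on simulated counts. Within each role group, library values are given for the 3 genes with the smallest p and the gene with the largest p, and for pathway lists the 3 smallest are named, except 1 gene that is not reported here. The genes and lists were chosen with earlier results of these data known. Floors of 3 counts are scaled by library totals without TMM and cover counting error only.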

Additional observations from a re-analysis of the deposited data

How the results depend on the processing

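No paired analysis was possible because the KO and CTRL libraries share no replicate numbers. The count of genes called was 173 (101 higher and 72 lower in KO) in the edgeR fit, 960 without a filter and 2959 with DESeq2, and 2 to 3211 when 1 library was left out. With library totals the split was 114 higher and 50 lower, and the median of all genes stood at 0.13. Of the 45 genes, 0 were called, against 11 without a filter, 32 with DESeq2 and 0 to 33 with 1 library left out. Their median of 0.95 was 0.20 with the proximal tubule covariate, 0.16 with the endothelial covariate and 0.74 to 1.17 with 1 library left out. The 36 genes at an unadjusted p below 0.05 were 3 with either covariate and 29 to 37 with 1 library left out. Over the pathway lists 0 genes were called, against 11 without a filter, 29 with DESeq2 and 0 to 32 with 1 library left out. The mean relative to endothelial markers differed by -0.69, KO minus CTRL, and by -0.91 to -0.42 with 1 library left out.

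With the proximal tubule covariate the sign turned for Ddx58 (-0.01), Irf1 (-0.14), Oas3 (-0.10), Samhd1 (-0.12), Gbp2 (-0.49), Gbp5 (-0.12) and Gbp9 (-0.06), and for the medians of JAK-STAT genes (-0.05) and upstream sensors (-0.08). With the endothelial covariate it turned for Ddx58 (-0.02), Irf1 (-0.25), Ifit2 (-0.06), Oas3 (-0.18), Samhd1 (-0.18), Ifitm2 (-0.06), Gbp2 (-0.55), Gbp4 (-0.07), Gbp5 (-0.18) and Gbp9 (-0.20), and for the medians of receptors (-0.01), JAK-STAT genes (-0.10), upstream sensors (-0.09) and other induced genes (-0.04). Trim25 turned to 0.06 with library totals and Gbp2 to -0.03 without KO 146, within -0.03 to 0.48 with 1 library left out. Both covariates separated the groups by themselves, so the covariate fits cannot tell group from marker content. The cause of these changes was not tested. Oas3, Mx1, Ifitm1 and Gbp6 were not tested under the filter of 1 CPM in 3 libraries, and counts this low limit what can be seen of them.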
